A study of Mus musculus with 12 samples.

Results

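The genes described here are 10 mouse genes, most of them with human counterparts in or beside genetic susceptibility loci for asthma, with Ormdl1 and Ormdl2 included as relatives of Ormdl3: Ormdl1, Ormdl2, Ormdl3, Ikzf3, Zpbp2, Rad50, Rora, Dennd1b, Clec16a and Bach2. Their N6-methyladenosine (m6A) peaks were taken from the 2 deposited peak lists by name: every peak that the authors assigned to one of the genes, and every peak that the caller had placed on one of them. This gave 25 of the 27292 peaks in the list of the asthma model and 19 of the 26102 peaks in the list of the controls.

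Female BALB/c mice aged 6 to 8 weeks were compared as an asthma group (OVA) and a control group (PBS), with 3 mice each. OVA mice were injected with ovalbumin and aluminium hydroxide on days 0 and 7 and breathed an aerosol of 3% ovalbumin for 30 min daily from day 14 to day 20, and PBS mice were given PBS both times. Lungs were taken after a bronchial provocation test on day 21. From each lung, RNA fragments bound by an m6A antibody (IP) and unselected fragments (input) were sequenced, giving 6 IP and 6 input libraries, and 1 peak list was deposited per group.

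ORMDL proteins sit in the membrane of the endoplasmic reticulum and hold back serine palmitoyltransferase, the enzyme that starts sphingolipid synthesis. Variants around ORMDL3 are among the best known genetic associations of childhood asthma. m6A is placed on many mRNAs while they are made, often near the stop codon and in the 3′ untranslated region (UTR), and proteins that bind it affect splicing, decay and translation.

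A peak is a stretch of transcript with more reads in IP than in input, and its fold enrichment is the ratio of the former to the latter as the caller gave it. The log10 p is the caller's own score for that ratio and also moves with the number of reads, so a gene with more RNA can reach a lower value at the same fold enrichment. The lists were called separately, the reads behind each peak are not given in them, the read totals that the study states per library were not used here, and how the 3 mice of a group were combined is not stated. Below, OVA and PBS also name the lists. From the lists alone no difference between them has a replicate check or a test, and values set side by side below are a description. Each list gives for every peak a called gene, on whose exons it was found, and an assigned gene, chosen afterwards by annotation. For genes other than the members, having a peak means a called peak. Coordinates are those of the lists, set beside RefSeq gene positions of the mouse build GRCm38.p6.

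Of the 10 genes, 7 had at least 1 called peak in OVA and the same 7 in PBS: Ormdl3, Ikzf3, Rad50, Rora, Dennd1b, Clec16a and Bach2. Among 20942 RefSeq protein-coding genes, 54.4% had a called peak in OVA and 52.8% in PBS. These shares are the background for every count of genes with a peak given below, and none of those counts was tested. No peak of either list was called on or assigned to Ormdl1, Ormdl2 or Zpbp2, and no peak of any gene overlapped their RefSeq positions. A peak list does not separate a transcript without m6A from one with too few reads.

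The highest peak of each of the 7 genes was annotated as 3′ UTR in both lists. The same held for the highest peak of 70.2% of the protein-coding genes with a peak in OVA and 69.5% in PBS. Of all member peaks, 18 of 25 in the OVA list (72.0%) and 15 of 19 in the PBS list (78.9%) were annotated as 3′ UTR, against 52.7% of all peaks in each list. By this label the members' peaks were weighted toward the 3′ UTR, as were the highest peaks of most genes. Some peaks inside Rad50 carry the label far from the 3′ end of the gene, as described below.

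The median fold enrichment of the members' peaks was 3.82 in OVA and 5.13 in PBS. Over all peaks the medians were 5.59 and 5.44. The members' values ran from 1.66 to 17.2 in OVA and from 1.70 to 26.6 in PBS, and 5 peaks of each list were above 10. By highest peak the order was Rora, Clec16a, Ikzf3, Dennd1b, Bach2, Rad50 and Ormdl3 in OVA and Bach2, Rora, Ikzf3, Dennd1b, Clec16a, Rad50 and Ormdl3 in PBS. Rad50 and Ormdl3 were last in both.

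**Figure D1:**
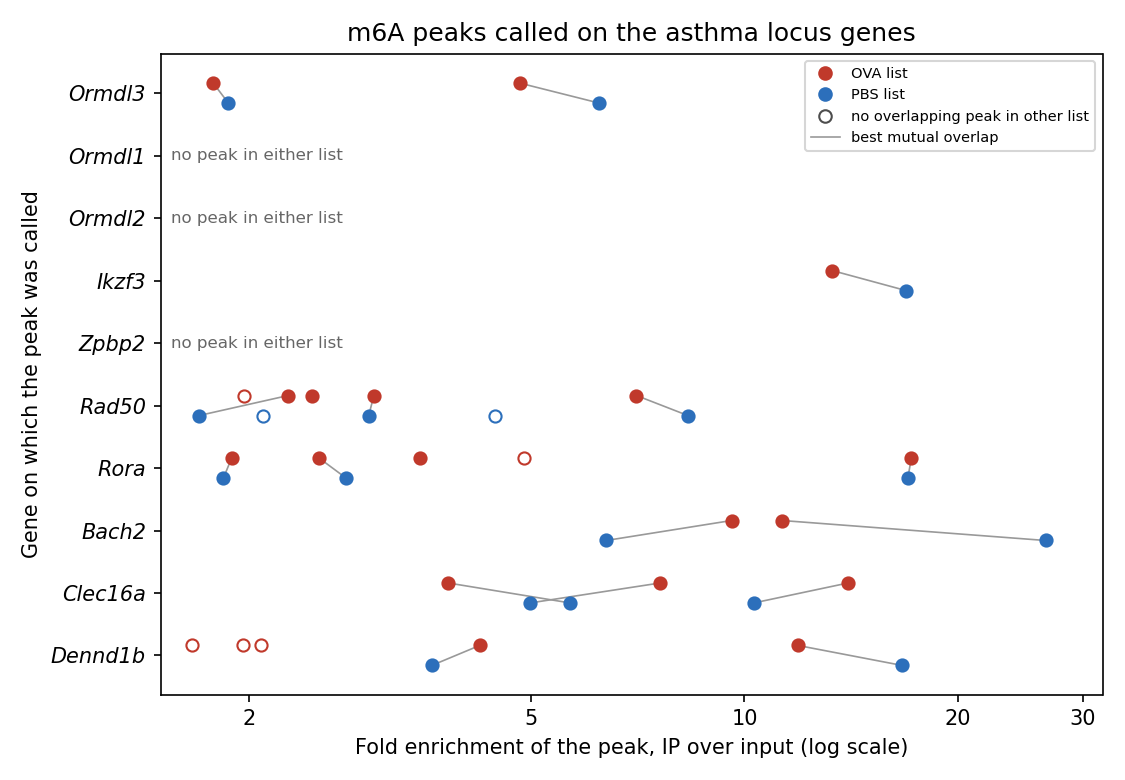
Fold enrichment (IP over input, log axis) of each peak called on the 10 genes, with OVA peaks in red and PBS peaks in blue; open circles have no overlapping peak in the other list, and grey lines join peaks that are each other's best overlap. Bach2 has the widest gap between joined peaks, 11.3 in the OVA list against 26.6 in the PBS list, and 3 genes have no peak.

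Peaks were counted as shared when their exonic blocks overlapped by at least 1 bp. Of the members' OVA peaks, 19 of 25 (76.0%) overlapped a PBS peak, against 80.6% of all OVA peaks. Of their PBS peaks, 17 of 19 (89.5%) overlapped an OVA peak, against 85.5% of all PBS peaks. These shares were near those of the whole lists. The 6 OVA peaks without overlap had a median fold enrichment of 2.02 and covered 61 to 242 bp of exon, and the members' shared OVA peaks had a median of 4.82. Over the whole OVA list the corresponding medians were 2.87 and 6.50.

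Peaks that were each other's best overlap formed 17 member pairs, 1 of them at the Ciita gene as described below. The fold enrichment was higher in the OVA list in 9 of the 17, with a median ratio of OVA to PBS of 1.01. Over 20532 such pairs in all it was higher in the OVA list in 61.4%, with a median ratio of 1.10. None of the members' pairs was at least 2-fold higher in the OVA list, where 7.77% of all pairs were, and 1 was at least 2-fold lower, where 4.93% of all pairs were. That pair was the 3′ UTR peak of Bach2. The log10 p was stronger in OVA for 11 of the 17 member pairs (64.7%), near the 59.4% of all pairs with finite scores.

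Ormdl3 (ENSMUSG00000038150), the ORMDL gene of the asthma locus, carried 2 peaks per list, all annotated as 3′ UTR and assigned to the gene on which they were called. The larger lay at 98581883 to 98582183 on chromosome 11 in the OVA list, with a fold enrichment of 4.82 and a log10 p of -25.2. In the PBS list it lay at 98581913 to 98582183, with 6.24 and -39.4. It ended at the same base in both lists. The smaller peak, at 98582541 to 98582721 in OVA and 98582511 to 98582811 in PBS, had a fold enrichment of 1.78 and 1.87, under the 2-fold line in both. The ratios of OVA to PBS for these pairs were 0.772 and 0.952, at percentiles 16.3 and 32.7 of all pairs. Both Ormdl3 peaks thus had a weaker score in the OVA list and a fold enrichment that was lower by less than 2-fold.

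Ormdl1 (ENSMUSG00000026097) and Ormdl2 (ENSMUSG00000025353), the other ORMDL genes of the mouse, span 53297095 to 53310245 on chromosome 1 and 128817902 to 128821629 on chromosome 10 in RefSeq (GRCm38.p6). Both were without peaks, so Ormdl3 was the one gene of the family with a called peak. Of 10 genes of the enzyme complex that ORMDL proteins restrain and of the ceramide steps after it, 9 had a peak in each list and 8 in both. Sptlc2, a catalytic subunit, had a peak of fold enrichment 6.38 in OVA and 6.97 in PBS, and Sptlc1, its partner, had 6.33 and 5.23. Sptlc3 had a peak in the OVA list alone (2.98, with a log10 p of -1.96). Sptssb, a small subunit, had one in the PBS list alone (13.8, with a log10 p of -3.86). Both scores were weak beside those of Sptlc2, -1620 in OVA and -1580 in PBS. The highest values were 15.4 for the ceramide synthase Cers5 in OVA and 13.8 for Sptssb in PBS, and the lowest were 1.39 and 1.28 for Cers2, another ceramide synthase. Their share with a peak stands beside 54.4% and 52.8% of all protein-coding genes and was not tested.

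Ikzf3 (ENSMUSG00000018168) encodes Aiolos, a zinc finger transcription factor of the Ikaros family that acts in B and T lymphocytes. Its only peak in each list was long and strong. It covered 98465890 to 98467420 on chromosome 11 in the OVA list, 1531 bp with a fold enrichment of 13.3, and 98465890 to 98467450 in the PBS list, 1561 bp with 16.9. The log10 p was -1480 in OVA and -429 in PBS. The OVA score was thus 3.45 times the PBS score while the fold enrichment was lower, at 0.787 times the PBS value. Among all pairs this put Ikzf3 at percentile 93.2 for the ratio of scores and 17.3 for the ratio of fold enrichments.

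The Ikzf3 peak was annotated as 3′ UTR but assigned to Gm25106, a small nuclear RNA gene, in both lists, so a search by assigned name finds no Ikzf3 peak. All 5 genes of the Ikaros family had a peak in both lists. Ikzf1, which encodes Ikaros, reached 12.4 in OVA and 9.52 in PBS. Ikzf2, which encodes Helios, had the highest value of the family in each, 16.7 and 17.3. Aiolos was therefore not alone in its family in carrying peaks.

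Genes that mark T and B lymphocytes gave a similar picture of scores. Of the 11 such markers reported here, 10 had a peak in OVA and 8 in PBS; Cd3g and Cd8a had one in the OVA list alone, and Cd79a had none. In 11 of 11 marker pairs with finite scores the log10 p was lower in the OVA list, with a median ratio of scores of 3.52, while the fold enrichment was higher in the OVA list in 5 of 12 pairs. Some markers gave more than 1 of these pairs. Over 20480 pairs with finite scores in all, the score was stronger in the OVA list in 59.4%, with a median ratio of 1.14. Other gene lists varied. It was stronger in OVA in 7 of 7 pairs of the DENND1 family with Rab35 and in 15 of 18 around Clec16a. For the ROR receptors and their clock partners this held in 3 of 8. The highest marker peaks were on Pax5 (39.3) in OVA and on Cd22 (26.2) in PBS. In whole lung more cells of a type and more RNA per cell cannot be told apart, and the part of either in the Ikzf3 scores was not tested.

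Bach2 (ENSMUSG00000040270) encodes a transcriptional repressor that keeps T cells and B cells from terminal effector and plasma cell fates. It had 2 peaks in each list, all assigned to Bach2. The 3′ UTR peak lay at 32579880 to 32580929 on chromosome 4 in OVA and at 32579910 to 32580959 in PBS, 1050 bp long in both and shifted by 30 bp. Its fold enrichment was 11.3 in OVA and 26.6 in PBS, a ratio of 0.425 at percentile 3.40 of all pairs. The log10 p values were close, -632 and -591. The PBS value was the highest of any member peak, above 97.1% of all PBS peaks, against 74.3% of all OVA peaks for its OVA counterpart.

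The other Bach2 peak, in an exon, went the other way. It covered 32562420 to 32563140 in the OVA list with a fold enrichment of 9.59 and 32562480 to 32563020 in the PBS list with 6.38, a ratio of 1.5 at percentile 81.6. The OVA list alone also had 4 peaks called on Bach2os, an antisense gene, within the Bach2 position. Their fold enrichments were 2.98, 3.64, 5.77 and 1.73, and the last, from 32561983 to 32563276, shared 79 bp of exon with the Bach2 exon peak. The libraries were made by a method that keeps strand, but whether strand was used in calling is not stated, so the lists do not tell Bach2 and Bach2os apart at this exon.

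All 6 genes of the BACH family with its small MAF partners and the repressor Prdm1 had a peak in both lists. Bach1 was highest in the OVA list, at 26.3, where Bach2 reached 11.3, and it had 19.0 in the PBS list. Prdm1, which encodes the plasma cell factor Blimp-1 and is repressed by Bach2, had 25.4 in OVA and 22.4 in PBS. The order of Bach1 and Bach2 by highest peak was thus opposite in the lists.

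Rora (ENSMUSG00000032238) encodes a nuclear receptor needed for type 2 innate lymphoid cells and part of the circadian clock. It had 5 called peaks in OVA and 3 in PBS. The strongest, in the 3′ UTR, covered 69378802 to 69379493 on chromosome 9 in the OVA list, with a fold enrichment of 17.2 and a log10 p of -184. In the PBS list it was 1 peak from 69376866 to 69380122 in 2 blocks, with 17 and -369, which also overlapped a second OVA peak at 69379552 to 69380002 of fold enrichment 3.48. At this place 1 PBS peak thus stood against 2 OVA peaks. The highest values were close but belong to unlike stretches, 692 bp of exon in OVA and 1352 bp in PBS.

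A weaker 3′ UTR peak of Rora had a fold enrichment of 2.51 in OVA and 2.74 in PBS. Far upstream, an exon peak at 68664204 to 68664385 in the OVA list had 1.89, and its PBS counterpart at 68664144 to 68664535 had 1.84. The remaining OVA peak, at 68663875 to 68663936, covered 62 bp with a fold enrichment of 4.88, a log10 p of -3.57 and no PBS overlap. Of the members' 25 OVA peaks, 3 had a weaker score.

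All 3 OVA and both PBS peaks in the 3′ UTR of Rora were assigned to Ice2, a neighbouring gene that encodes a subunit of the little elongation complex. They lay 16253 to 18411 bp outside the RefSeq position of Ice2 in the OVA list. Of 6 genes of the ROR receptors and their clock partners, 4 had a peak in OVA and 6 in PBS. Nr1d1, a clock repressor, had peaks in the PBS list alone, up to 5.94, with a lowest log10 p of -82.8. Rorb also had a peak there alone, with 2.17 and a weak log10 p of -1.86. Rora itself had the highest value of the group in both lists.

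Rad50 (ENSMUSG00000020380) encodes an ATPase of the complex that detects DNA double-strand breaks. Its gene also holds the control region for the neighbouring type 2 cytokine genes Il4, Il5 and Il13. Each list had 5 peaks called on it, of which 4 overlapped a PBS peak in OVA and 3 overlapped an OVA peak in PBS. The strongest lay in the 3′ UTR at 53650145 to 53650594 on chromosome 11 in the OVA list, with a fold enrichment of 7.04 and a log10 p of -112. In the PBS list it lay at 53650175 to 53650594, with 8.32 and -137. Beside it was a weaker peak, with 2.27 in OVA and 1.70 in PBS.

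These 2 Rad50 peaks were assigned to Il13 in both lists. They lay 15055 and 15443 bp outside the RefSeq position of Il13 in the OVA list. No peak of either list was called on Il13, Il4 or Il5, and none overlapped the RefSeq position of Il13. The peaks that carry the name of the cytokine were therefore peaks of the Rad50 3′ UTR.

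Further inside Rad50, weak peaks had different limits in the lists. An OVA peak from 53668193 to 53669756 had 3.00 and another from 53674785 to 53675902 had 2.45. The PBS list had 1 peak from 53668133 to 53674786 in 3 blocks, with 2.95. It overlapped the first, and the second only at the end bases, 53674785 to 53674786. A peak of 61 bp at 53680048 was in the OVA list alone, with 1.97. In the PBS list alone were a peak of 91 bp at 53692036, with 2.09, and a 5′ UTR peak at 53707079 to 53707319, with 4.44 and a log10 p of -3.77. The annotation gave 2 of these OVA peaks and the PBS peak of 3 blocks as 3′ UTR. Yet they began 25266, 30529 and 18614 bp from the 3′ end of the RefSeq position. The 5′ UTR peak ended at the last base of the RefSeq position and was the 1 member peak annotated as 5′ UTR.

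The other genes of the same complex and the kinase it activates, 4 with Rad50, had peaks in both lists. Atm, the kinase, was highest, at 11.5 in OVA and 13.3 in PBS, and Nbn, the adaptor that recruits it, had 8.06 and 6.32. Mre11a, the nuclease, was low, at 1.87 and 1.74. Rad50 lay between Mre11a and Atm in both. Of 15 genes around Rad50, 8 had a peak in OVA and 7 in PBS, with Slc22a4, a carnitine and ergothioneine transporter, in the OVA list alone and highest there at 37.5. Shroom1 was highest in the PBS list, at 14.3.

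Clec16a (ENSMUSG00000068663) encodes a protein of endosomes that takes part in mitophagy. Here the name and the position of the peaks came apart. The peaks assigned to Clec16a, 2 in OVA and 1 in PBS, were all called on Ciita. This nearby gene encodes the master regulator of MHC class II genes. The peaks lay inside the Ciita position (10480014 to 10531064 on chromosome 16). In the OVA list they were 17880 and 18840 bp outside that of Clec16a (10545309 to 10744878).

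**Figure D2:**
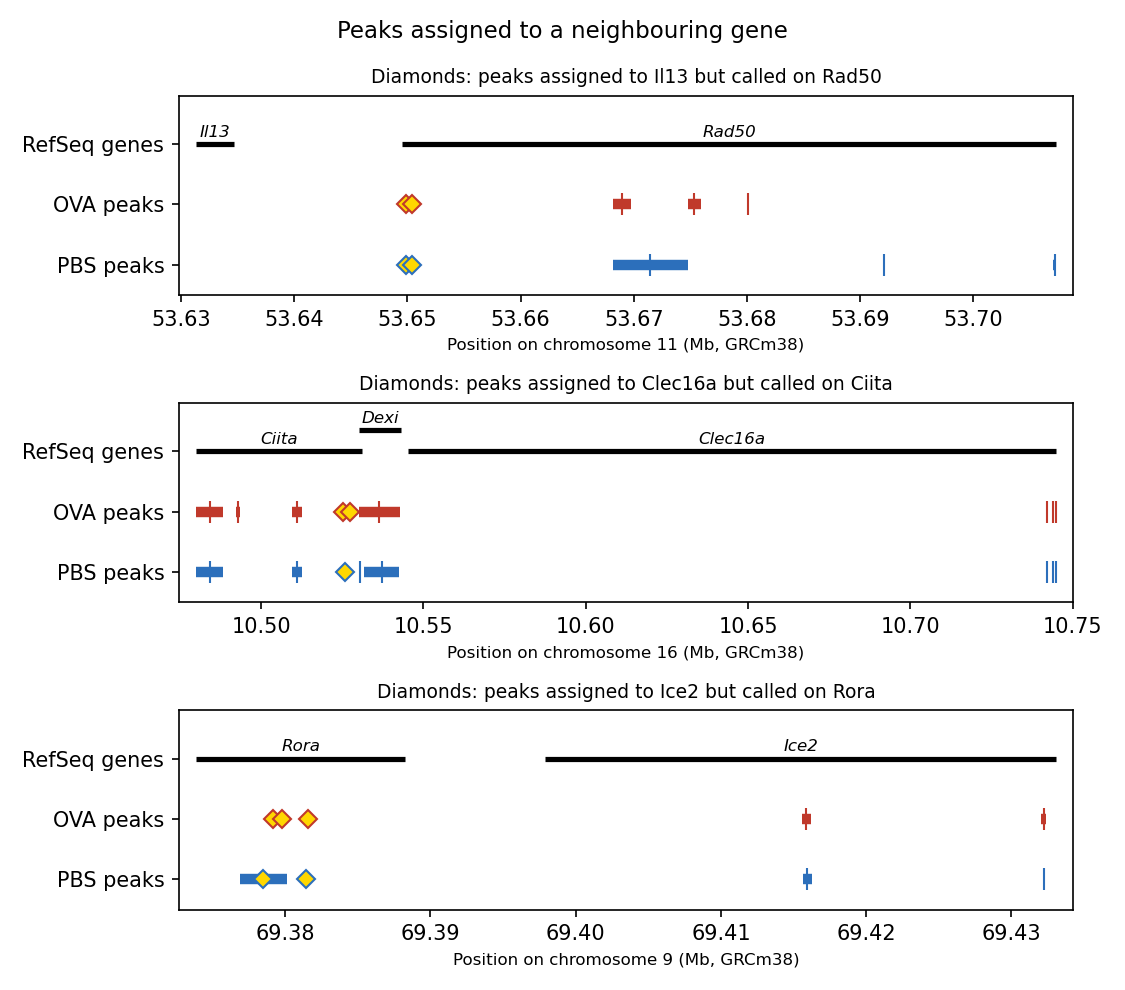
RefSeq gene positions (black bars) and peaks of both lists (red, OVA; blue, PBS; a vertical tick marks the middle of each peak) at 3 loci, with position in Mb on the horizontal axis and the end of Rora shown in the lowest panel. Diamonds mark peaks that were assigned to Il13, Clec16a or Ice2 and lie within Rad50, Ciita or Rora.

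The shared Ciita peak under the Clec16a name, 10523989 to 10526469 in OVA and 10525189 to 10526529 in PBS, had a fold enrichment of 5.39 and 5.13. Its log10 p was -574 and -122. The ratio of scores, 4.70, was above 95.9% of all pairs, and the ratio of fold enrichments, 1.05, was at percentile 44.4. The main peak of Ciita, at 10509392 to 10512503 in both lists, had 15.4 in OVA and 15.6 in PBS, with a log10 p of -1440 and -317. A further Ciita peak, 10480058 to 10488230 in OVA, had 5.33 against 4.14 in PBS, with a log10 p of -80.3 and -13.8. The scores of these 3 Ciita pairs were thus stronger in the OVA list, at ratios of fold enrichment of 1.05, 0.987 and 1.29, and the part of cell numbers or RNA level in this was not tested. The other OVA peak under the Clec16a name had 2.40 and no PBS overlap.

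The peaks that were called on Clec16a lay at the far end of its own position, were annotated as 3′ UTR and were assigned to Gm46563, an antisense gene, in both lists. There were 3 in each list and all overlapped. The first covered 10741638 to 10742419 in the OVA list with a fold enrichment of 14 and 10741668 to 10742449 in the PBS list with 10.3. The next, starting at 10743797 in both lists, had 7.60 and 4.98. The last ended at 10744878, the end of the RefSeq position, in both lists, and had 3.82 and 5.68. The ratios of OVA to PBS were 1.36, 1.53 and 0.673, so peaks of 1 transcript differed in direction. Of 13 genes around Clec16a, 10 had a peak in OVA and 9 in PBS, Tvp23a in the OVA list alone. The highest were Snn (18.7) in OVA and Txndc11 (25.7) in PBS.

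Dennd1b (ENSMUSG00000056268) encodes a guanine nucleotide exchange factor for Rab35 that takes part in endocytosis, including removal of the T cell receptor from the surface. It had 5 called peaks in OVA and 2 in PBS. The strongest covered 139168893 to 139171041 on chromosome 1 in the OVA list, with a fold enrichment of 11.9 and a log10 p of -692. In the PBS list it covered 139168923 to 139170981, with 16.7 and -366. A second peak near the end of the gene had 4.23 in OVA and 3.62 in PBS. Both were annotated as 3′ UTR and assigned to Gm37718, a locus whose annotated type is TEC, for transcripts that await experimental evidence. The larger Dennd1b peak had, like that of Ikzf3, a lower fold enrichment and a stronger score in the OVA list.

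The other 3 OVA peaks of Dennd1b were annotated as exonic and overlapped no PBS peak. The first, at 139055691, had a fold enrichment of 1.66. The next, at 139056680, had 1.96, and the last, at 139093357, had 2.08. By fold enrichment they stood at percentiles 4.45, 9.38 and 11.6 of all OVA peaks, near the weak end. All 4 genes of the DENND1 family with Rab35 had a peak in both lists. Dennd1a was highest in the OVA list, at 14.9, and Dennd1b in the PBS list, at 16.7. Rab35 itself had 7.13 and 9.89.

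Zpbp2 (ENSMUSG00000017195), which encodes a sperm acrosome protein, lies between Ikzf3 and Ormdl3 at 98551097 to 98558665 on chromosome 11. It had no peak, and neither had its relative Zpbp. Of 10 testis and heart markers, none had a peak in OVA and 1, the cardiac myosin gene Myh6, had one in PBS, with a fold enrichment of up to 3.30. Of 10 lung markers, 9 had a peak in both lists, with Foxj1, the factor of ciliated cells, highest at 15.2 and 17.3. Sftpc, the surfactant gene of alveolar type 2 cells, had none, which shows that even a marker of the tissue can lack a peak.

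Around Ikzf3, Zpbp2 and Ormdl3, 14 of 25 neighbouring genes had a peak in OVA and 15 in PBS. Ppp1r1b (lowest log10 p -3.58) and Psmd3 (-6.25) had one in the OVA list alone. In the PBS list alone were peaks of Nr1d1 (-82.8), Rapgefl1 (-3.07) and Tcap (-36.0). Fbxl20 was highest in both, at 56.5 and 52.3, above every peak of Ikzf3 and Ormdl3. Of 38 further genes from asthma susceptibility loci, 31 had a peak in OVA and 30 in PBS. D2hgdh had one in the OVA list alone, with a weak log10 p of -2.07. The highest were Tnfsf4, which encodes OX40 ligand, at 48.5 in OVA and Ets1 at 38.3 in PBS. Il33, an epithelial alarmin gene, had 3.89 and 5.90.

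The peaks called on a member numbered 23 in OVA and 18 in PBS, and each overlapped the RefSeq position of its gene. Among these, the assigned gene was another gene for 11 OVA peaks (47.8%) and 10 PBS peaks (55.6%). Over all peaks it differed for 22.5% and 22.8%. The remaining member peaks, those of Ciita, entered by their assigned name and differ by that choice. By assigned name alone, 14 and 9 peaks would have been found, 2 and 1 of them those of Ciita. The highest peaks of 5 of the 7 genes with peaks, Ikzf3, Rad50, Rora, Dennd1b and Clec16a, carried the name of another gene in both lists.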

How the data were processed

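The authors trimmed reads with FASTP and used HISAT2 for alignment to Ensembl's mouse genome, exomePeak for peak calling and ChIPseeker for annotation; versions of these tools are not given in the sources used here. The deposited lists give each peak's fold enrichment (a ratio of IP to input). They also give the authors' log10 p and log10 FDR, used here as scores. No values per mouse were used. The authors' own test between the groups, with its fold changes and p-values per peak, was not used here. Member peaks were found by assigned gene name or called gene identifier. Symbols and positions came from the Ensembl name table and RefSeq (GRCm38.p6). Peaks were intersected by exonic blocks (at least 1 bp), and best mutual overlaps were paired, with Python 3.11.15, pandas 2.3.3 and numpy 2.4.6. The overlap step was tested on simulated intervals. Alternatives were an FDR under 0.05, a fold enrichment of at least 2, other overlap rules and either gene label alone. Every member is described; of other lists, genes with a peak in 1 list alone and the highest gene of each list are named, with a few others chosen after their values were seen. The members and lists were chosen with earlier results of these data known. A marker gene of the lymphocyte list is not reported here.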

Additional observations from a re-analysis of the deposited data

How the results depend on the processing

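All member peaks passed an FDR under 0.05, so that setting changed no count, and its values are among the 27 that held. Of 38 values recomputed under other settings, 27 held and 11 moved, where a count held if it was within 1.5 times that of the report and a median only if it was equal to 3 digits. By assigned gene name alone, the members had 14 peaks in the OVA list in place of 25 and 9 in the PBS list in place of 19; 8 and 7 of these overlapped a peak of the other list, in place of 19 and 17. The median fold enrichment was then 2.42 and 4.44. By called gene alone the PBS median was 5.33. With the highest peak of each gene, the medians were 11.9 in OVA and 16.7 in PBS. Asking for the same start and end in both lists left 0 shared OVA peaks and 0 shared PBS peaks. Counts that held could still fall: at least 2-fold enrichment left 20 OVA and 16 PBS peaks. Asking for an overlap of 50% of both peaks left 15 shared OVA peaks and 15 shared PBS peaks. The share of all peaks under this rule, or under identical limits, is not given here. Neither result can therefore be read as particular to the members. By assigned name alone, a setting added after the data were seen, 6 genes had a peak in OVA and 5 in PBS.

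No paired analysis was possible because each list holds 1 value per peak for the whole group and no result comes from a test; leaving out a mouse was not possible for the same reason. The read depth behind each peak is not given in the lists, so its part in weak peaks found in 1 list alone was not tested.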
